A study of Mus musculus with 6 samples.

Results

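The 41 genes described here encode the contractile apparatus of striated muscle, the proteins that couple excitation to calcium release, and the enzymes and oxygen carrier that fuel contraction. They were picked by gene symbol from the 57010 genes of the count table, after earlier results of these libraries were known, and their difference between mandible and femur is therefore given as a description without a test. Monocytes, the marrow cells from which osteoclasts arise, were taken from the bone marrow of femurs and mandibles of C57BL/6 mice (C57BL/6J in the study's methods) that were 1 year old, and the libraries are 3 from femur (S13, S15 and S18) and 3 from mandible (S16, S19 and S23). All mice were untreated and carried no named allele. The bones were cleaned of soft tissue before their marrow was washed out, and the monocytes were enriched with the Miltenyi mouse monocyte isolation kit, which holds back other labelled marrow cells on a column and keeps what flows through. The study used male and female mice, and the labels give neither the sex nor the animals behind a library. The spread between libraries may thus be technical, except that S23 differed from the rest in sex-linked genes, as given below.

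In a muscle fibre, myosin heavy chains pull on actin filaments. Calcium released from the sarcoplasmic reticulum binds troponin C and so frees the thin filament for myosin. Fast and slow fibres use different genes for the same parts: Myh1, Myh2 and Myh4 with Tnnt3, Tnni2 and Tnnc2 in fast fibres, and Myh7 with Tnnt1, Tnni1 and Tnnc1 in slow ones. Jaw-closing muscles of the mouse attach to the mandible and are known as mostly fast muscles. Monocytes are not known to build sarcomeres.

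The libraries held between 15718782 and 25371474 counts. Monocyte markers were present in both groups. All 12 listed monocyte genes passed the filter on low counts, 0 of 12 were called different by edgeR's quasi-likelihood test and 0 by DESeq2, and 1 of 12 had an unadjusted p under 0.05. Their summed level was 8312 to 15536 CPM (counts scaled to library size with TMM factors) in femur and 7222 to 13037 CPM in mandible, most of it Lyz2, which neutrophils also express (4620 to 10579 CPM), and the defining marker Ly6c2 was at 182 to 474 CPM. Markers of other cells were as abundant in some libraries: 6 neutrophil genes summed to 18253 CPM in S13 against 10573 CPM of monocyte genes, and in S23 mesenchymal and ameloblast genes summed to 15005 and 11217 CPM against 7222 CPM of monocyte genes. One femur library, S15, stood apart from the others. It had counts for 40494 genes against 17481 to 23513 in the other 5 libraries, and 13454 genes were counted in S15 only. Library S23 differed from the rest in sex-linked genes, with Xist at 1441 CPM and 0 counts on 4 Y-linked genes, whereas the other 5 libraries had at most 0.553 CPM of Xist and 2772 to 4590 Y-linked counts.

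The promoters of 3 members are shown first because they belong to the skeletal actin gene, the muscle creatine kinase gene and the most abundant myosin heavy chain gene of the mandible libraries. Each run is the 250 bases upstream of the RefSeq start, read 5′ to 3′ on the gene's own strand in GRCm38.p6. Capitals mark matches, on either strand, to an E-box bound by myogenic factors (CANNTG), a MCAT element (CATTCC), a CArG box or a MEF2 site.
Acta1, chr8:123894776-123895025, minus strand: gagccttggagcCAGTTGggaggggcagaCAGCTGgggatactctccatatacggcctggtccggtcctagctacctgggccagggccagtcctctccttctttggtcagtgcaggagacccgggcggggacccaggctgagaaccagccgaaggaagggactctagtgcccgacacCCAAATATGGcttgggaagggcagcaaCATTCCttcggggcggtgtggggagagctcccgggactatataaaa
Ckm, chr7:19410844-19411093, plus strand: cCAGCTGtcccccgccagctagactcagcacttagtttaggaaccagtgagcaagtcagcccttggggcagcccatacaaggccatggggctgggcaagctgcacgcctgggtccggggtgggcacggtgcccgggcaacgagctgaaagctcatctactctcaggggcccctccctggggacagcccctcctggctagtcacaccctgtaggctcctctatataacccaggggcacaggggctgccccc
Myh1, chr11:67199852-67200101, plus strand: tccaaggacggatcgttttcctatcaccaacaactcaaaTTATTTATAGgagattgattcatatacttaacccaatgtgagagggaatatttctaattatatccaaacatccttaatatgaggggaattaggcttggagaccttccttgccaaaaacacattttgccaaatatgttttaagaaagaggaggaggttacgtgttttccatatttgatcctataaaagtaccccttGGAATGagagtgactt
The Acta1 window held 2 E-boxes, 1 CArG box and 1 MCAT element. The Ckm window held 1 E-box, and the Myh1 window held 1 MEF2 site and 1 MCAT element on the opposite strand. RefSeq promoters were matched for 34 of the 41 members, some with more than 1 start, which gave 41 member windows. A CArG box was in 17.1% of these windows against 1.47% of the 32851 windows of all genes, a MEF2 site in 17.1% against 2.92%, a MCAT element in 24.4% against 12.6%, and an E-box in 82.9% against 66.2%. At least 1 of CArG, MEF2 and MCAT was in 19 of the 41 member windows, or 46.3%, against 16.4% of the 32851 windows. A match of letters is not a bound site.

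As a group, the members were sparse in femur and abundant in mandible. They made up 0.00893% to 0.0220% of all counts in the femur libraries (2402, 4354 and 2266 counts in S13, S15 and S18) and 0.279% to 1.04% in the mandible libraries (122635, 57238 and 163850 counts in S16, S19 and S23). Their summed level was 133, 201 and 100.1 CPM in S13, S15 and S18 against 6136, 2717 and 9372 CPM in S16, S19 and S23. The groups did not overlap, and S23 was the highest of the mandible libraries and S19 the lowest. In bulk RNA, fewer cells of a type and less RNA per cell cannot be told apart.

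Of the 41 members, 35 passed the filter on low counts. Among them 29 met the call used for all genes, at least a 2-fold difference with an adjusted p under 0.05, in the direction of higher levels in mandible. Of all 18114 genes tested, 3.88% met this call. Because the members were chosen with this contrast in view, nothing is read from the count. No member was called lower in mandible, with or without S15 and under DESeq2, and 0 of the 35 were lower at an unadjusted p under 0.05, whereas 1.30% of all genes were called lower (3.24% without S15). The mandible libraries all lay above all femur libraries for 30 of the 35 (12.7% of all genes tested). They all lay below for 0 of the 35 (11.5% of all genes tested). Among the members that did not pass the filter, Myl2 lay below all femur libraries in every mandible library. The median log2 difference (mandible minus femur) was 5.86, with a range from -1.38 to 11.06, beside a median of -0.04 over all genes tested. Without S15 it was 7.26, or 6.85 with the members that were then at 0 in femur set at the bound given by 3 counts per library, and 29 of the 35 were called, against 5.11% of all genes called higher in that fit. The 6 that did not pass the filter were Actc1, Tnni1, Tnnc1, Myh7, Myl2 and Myl3, and the 6 that passed it but were not called were Tnnt1, Myh3, Myom1, Myom2, Myom3 and Myoz2.

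**Figure D1:**
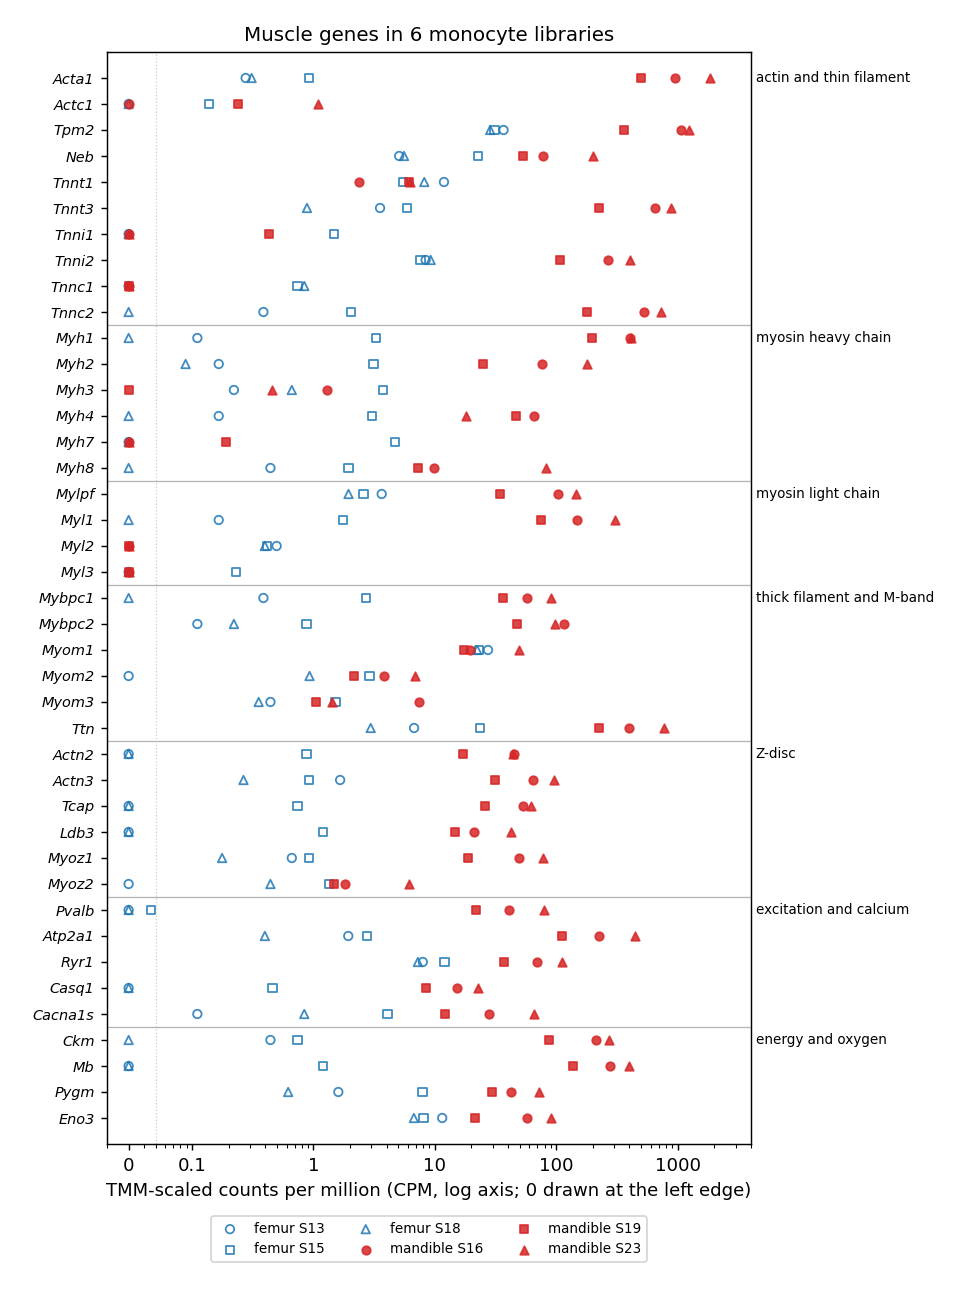
Level of each of the 41 members in each of the 6 libraries in CPM on a log axis with 0 drawn at the left edge, grouped by role, with open blue symbols for femur libraries S13, S15 and S18 and filled red symbols for mandible libraries S16, S19 and S23. Most members are higher in the 3 mandible libraries, S15 has counts for all 41, and Tnnc1, Myl2 and Myl3 have none in mandible.

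The actin and thin filament genes had 7 of 10 members tested and 6 of those called higher. Acta1, the skeletal muscle actin that forms the thin filament, was at 0.276, 0.921 and 0.309 CPM in S13, S15 and S18 and at 942, 496 and 1862 CPM in S16, S19 and S23. The groups were far apart, with 5 to 20 reads in a femur library and 10454 to 32559 in a mandible library. The log2 difference was 11.06 (SE 0.76), and 11.80 without S15. Acta1 lies on chromosome 8 at 123891769 to 123894751 (GRCm38, minus strand). It was also the most abundant member of the mandible libraries per length, at 716 CPM per kilobase. Actc1, the cardiac actin of heart and developing muscle, had 0, 0.138 and 0 CPM in femur and 0, 0.237 and 1.09 CPM in mandible.

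Tpm2, the β-tropomyosin that lies along the actin filament, had an appreciable femur level. It was at 36.8, 31.0 and 28.5 CPM in S13, S15 and S18 against 1057, 358 and 1232 CPM in S16, S19 and S23, a log2 difference of 4.78. Neb, the giant protein that runs along the thin filament, was at 5.08, 22.6 and 5.57 CPM in femur and at 77.9, 52.9 and 201 CPM in mandible. Here S15 was the highest femur library, and the groups did not overlap. The Neb call was lost when S13, S18 or S23 was left out.

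The fast troponins were all higher in mandible. Tnnt3, the fast troponin T that ties the complex to tropomyosin, was at 3.54, 5.90 and 0.884 CPM in S13, S15 and S18 and at 647, 226 and 885 CPM in S16, S19 and S23, with a log2 difference of 7.41 (SE 0.77). Tnni2, the fast inhibitory subunit, was at 8.40, 7.60 and 9.23 CPM in femur and at 268, 107 and 406 CPM in mandible, with a log2 difference of 4.95 (SE 0.47). Its femur level was thus even across the libraries, S15 included. Tnnc2, the fast calcium-binding subunit, was at 0.387, 2.03 and 0 CPM in femur and at 527, 180 and 725 CPM in mandible, with a log2 difference of 9.19 (SE 1.06). Of the exonic length of Tnnc2, 74.0% overlaps exons of Ube2c on the opposite strand, and the strand setting of the counting is not given in the sources used here. Tnni2 and Tnnt3 are neighbours on chromosome 7, at 142441808 to 142444410 and 142498836 to 142516009.

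The slow troponins did not follow. Tnnt1, the slow troponin T, was at 11.9, 5.44 and 8.17 CPM in S13, S15 and S18 and at 2.35, 6.17 and 6.29 CPM in S16, S19 and S23. The groups overlapped, and the log2 difference was -0.78 (SE 0.59). Tnni1, the slow inhibitory subunit, had 1.47 CPM in S15, 0.427 CPM in S19 and 0 elsewhere. Tnnc1, the calcium-binding subunit of slow and cardiac muscle, had 0, 0.737 and 0.839 CPM in femur and 0 in every mandible library. The upper limit behind a listed 0, taken as 3 counts, lay between 0.132 and 0.172 CPM and covers counting error only.

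The heavy chain genes lie in a cluster on chromosome 11, plus strand, in the order Myh3 (67078300 to 67102291), Myh2 (67171027 to 67197517), Myh1 (67200052 to 67224575), Myh4 (67238029 to 67260446) and Myh8 (67277124 to 67308634). Myh1, the IIX heavy chain, was at 0.110, 3.27 and 0 CPM in S13, S15 and S18 and at 405, 196 and 416 CPM in S16, S19 and S23. Myh2, the IIA heavy chain, was at 0.166, 3.13 and 0.0884 CPM in femur and at 75.9, 24.7 and 180 CPM in mandible. Myh4, the IIB heavy chain of the fastest fibres, was at 0.166, 3.04 and 0 CPM in femur and at 66.1, 46.5 and 18.2 CPM in mandible. For each of these S15 was the highest femur library and still lay below every mandible library. The log2 differences were 8.20 (SE 1.15) for Myh1, 6.35 (SE 1.11) for Myh2 and 5.33 (SE 1.13) for Myh4, and the Myh4 call was lost without S13, S16 or S19.

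Myh8, the perinatal heavy chain, was at 0.442, 1.94 and 0 CPM in S13, S15 and S18 and at 9.91, 7.31 and 82.2 CPM in S16, S19 and S23. S23 stood well above the other mandible libraries. The log2 difference was 5.37 (SE 1.25), and the call was lost without S13, S18, S19 or S23 and under DESeq2. Myh3, the embryonic heavy chain, was at 0.221, 3.73 and 0.663 CPM in femur and at 1.30, 0 and 0.458 CPM in mandible. The groups overlapped, and the log2 difference of -1.38 became 0.35 without S15. Myh7, the slow heavy chain on chromosome 14, had 4.70 CPM in S15, 0.190 CPM in S19 and 0 in the other 4 libraries.

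**Figure D2:**
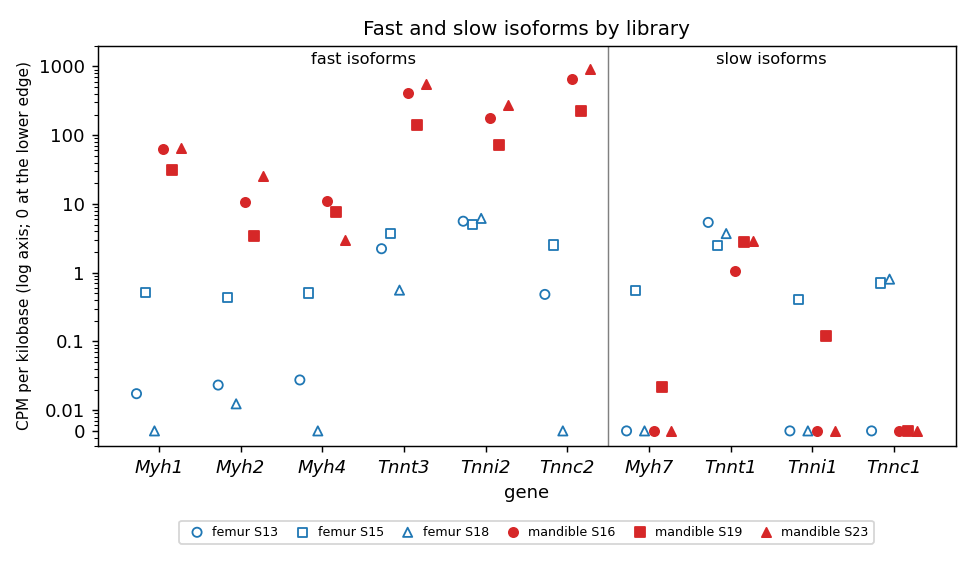
Levels of the 6 fast and 4 slow isoform genes in each library, as CPM per kilobase on a log axis with 0 at the lower edge, with open blue symbols for femur and filled red symbols for mandible. Every fast gene is higher in all mandible libraries than in all femur libraries, while Tnnt1 overlaps and Myh7, Tnni1 and Tnnc1 are at or near 0 in mandible.

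The fast share was computed from levels per kilobase, as the sum over the 6 fast genes divided by the sum over all 10 isoform genes. It was 99.9%, 99.4% and 99.8% in S16, S19 and S23, with a mean of 99.7% ± 0.285 (SD, n = 3). In S13, S15 and S18 it was 60.9%, 75.6% and 59.9%, with a mean of 65.5% ± 8.80 (SD, n = 3). The ranges did not overlap. In S13 and S18 the share rested mostly on genes of different troponin families. These were the fast Tnni2 (5.61 and 6.17 CPM per kilobase) and the slow Tnnt1 (5.39 and 3.71 CPM per kilobase). Heavy chains alone gave 90.9% in femur and 99.98% in mandible, the femur value resting on very few reads outside S15.

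Family by family, the slow form was rare in mandible at high depth. Among reads of Myh1, Myh2, Myh4 and Myh7, those of Myh7 were 0 of 10934 in S16, 4 of 5629 in S19 and 0 of 10745 in S23, and a count of 0 allows a share of up to 0.0274% in S16 and 0.0279% in S23. For troponin I the slow reads were 0 of 5350, 9 of 2264 and 0 of 7090. For troponin C they were 0 of 10539, 0 of 3794 and 0 of 12668. Troponin T kept a small slow share, with Tnnt3 at 99.6%, 97.3% and 99.3% of its reads in S16, S19 and S23. In femur Tnnt3 had 22.9%, 52.0% and 9.76% in S13, S15 and S18, so Tnnt1 was the larger part in S13 and S18. In S15 the fast heavy chains had 205 of 307 reads, or 66.8% (95% exact Clopper-Pearson interval 61.2 to 72.0). These intervals cover counting error only.

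Within the mandible libraries the make-up of the heavy chains was not constant. Myh1 led in each, with 73.8%, 72.3% and 65.0% of the heavy chain level per kilobase in S16, S19 and S23. Myh2 had 12.3%, 8.11% and 25.03%, and Myh4 had 12.7%, 18.1% and 2.998%. In S23, Myh2 was 8.35 times Myh4 per kilobase, against 0.967 times in S16 and 0.448 times in S19. Myh8 had 0.974%, 1.46% and 6.92%. The library with more Myh2 and Myh8 and less Myh4, S23, was also the one with high Xist and no Y-linked reads. As no other library had this pattern, sex cannot be told apart from any other difference of S23. These genes are close copies: 24.8% of the 50-base stretches of Myh1 transcripts, 22.7% of those of Myh2 and 18.6% of those of Myh4 also occur in another member, and how such reads were counted is not given in the sources used here.

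**Figure D3:**
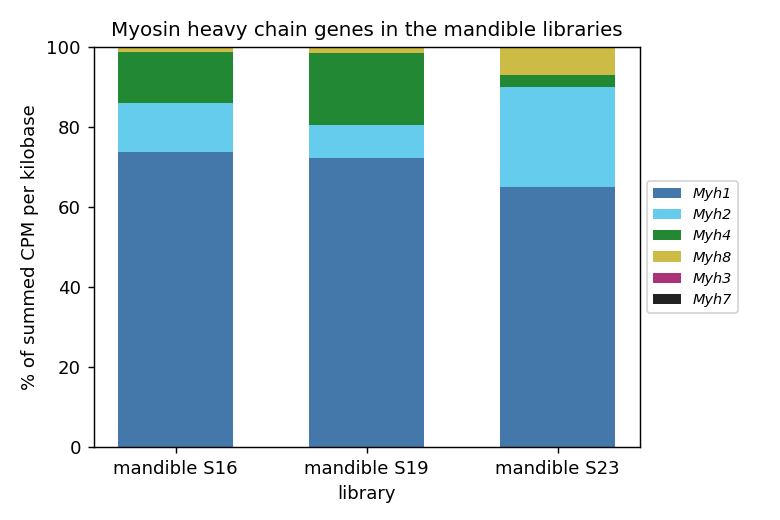
Share of each of the 6 heavy chain genes in the summed CPM per kilobase of the 3 mandible libraries. Myh1 takes 65.0% to 73.8%, and S23 has more Myh2 (25.03%) and less Myh4 (2.998%) than S16 and S19.

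The light chains showed the same division into fast and slow forms. Mylpf, the fast regulatory light chain, was at 3.65, 2.58 and 1.94 CPM in S13, S15 and S18 and at 104, 34.3 and 146 CPM in S16, S19 and S23 (log2 difference 5.12, SE 0.54). Myl1, the fast essential light chain, was at 0.166, 1.75 and 0 CPM in femur and at 150, 75.4 and 305 CPM in mandible (log2 difference 8.08). In both the groups were far apart. Myl2, the regulatory light chain of slow and cardiac muscle, had 9 reads in each femur library and 0 in each mandible library. Myl3, the slow and cardiac essential light chain, had 0.230 CPM in S15 and 0 in the other 5 libraries.

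Among the thick filament and M-band genes, 6 of 6 were tested and 3 were called higher. Ttn, titin, the elastic protein that spans from Z-disc to M-band, was at 6.74, 23.5 and 2.96 CPM in S13, S15 and S18 and at 394, 226 and 777 CPM in S16, S19 and S23. The log2 difference was 5.39 (SE 0.77), and S15 was the highest femur library. Mybpc2, the fast myosin-binding protein C, was at 0.110, 0.875 and 0.221 CPM in femur and at 115, 47.1 and 96.9 CPM in mandible (log2 difference 7.69, SE 0.66). Its slow paralog Mybpc1 was at 0.387, 2.72 and 0 CPM in femur and at 57.1, 36.3 and 89.97 CPM in mandible (log2 difference 5.86). Thus the slow paralog of this pair was higher in mandible, unlike the slow troponins and Myh7.

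The myomesins, which cross-link thick filaments at the M-band, were not called. Myom1 was at 27.4, 23.2 and 22.3 CPM in femur and at 19.6, 17.4 and 49.4 CPM in mandible, so that only S23 was above the femur libraries, and the log2 difference of 0.24 became -0.45 without S23. Myom2 was at 0, 2.90 and 0.928 CPM against 3.80, 2.14 and 6.81 CPM, and its groups overlapped. Myom3 was at 0.442, 1.52 and 0.353 CPM against 7.36, 1.04 and 1.43 CPM, with S16 alone above S15.

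At the Z-disc, where thin filaments of neighbouring sarcomeres meet, 6 of 6 genes were tested and 5 were called higher. Tcap, the titin cap, had no reads in S13 and S18 and 0.737 CPM in S15, against 53.0, 26.02 and 62.3 CPM in S16, S19 and S23. The log2 difference was 7.51 (SE 0.99). Without S15, the only femur library with Tcap reads, Tcap was at least 316-fold higher in mandible, with femur set at 3 counts per library. Actn2, an α-actinin that anchors actin, was at 0, 0.875 and 0 CPM in femur and at 44.8, 17.1 and 44.0 CPM in mandible. Actn3, the α-actinin of fast fibres, was at 1.66, 0.921 and 0.265 CPM and at 64.4, 31.3 and 96.3 CPM. These groups did not overlap, nor did those of Ldb3, a scaffold protein at 0, 1.20 and 0 CPM in femur and 21.0, 14.7 and 42.6 CPM in mandible, whose call was lost without S19 or S23 and under DESeq2. The calcineurin-binding Myoz1 of fast fibres was at 0.663, 0.921 and 0.177 CPM and at 49.7, 18.8 and 78.3 CPM. Its slow-fibre paralog Myoz2 had 0, 1.34 and 0.442 CPM in femur and 1.80, 1.47 and 6.18 CPM in mandible and was not called.

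The excitation and calcium genes were 5 of 5 called higher. Atp2a1, the fast calcium pump that refills the sarcoplasmic reticulum, was at 1.93, 2.76 and 0.398 CPM in S13, S15 and S18 and at 227, 112 and 446 CPM in S16, S19 and S23 (log2 difference 7.27, SE 0.74). Pvalb, parvalbumin, a calcium buffer of fast fibres, had 1 read in all femur libraries together and 2654 in mandible, a ratio of 2832 with a counting interval from 508 to 111885. Its mandible levels were 40.8, 21.6 and 79.0 CPM, which was 0.0639, 0.0644 and 0.0626 of Acta1 per kilobase, so the pair kept nearly the same proportion in the 3 libraries. Casq1, the calcium store protein of the reticulum, was at 0, 0.461 and 0 CPM in femur and at 15.3, 8.498 and 22.5 CPM in mandible.

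Ryr1 and Cacna1s encode the calcium release channel and the voltage sensor that opens it. Ryr1 had more femur reads than the other genes of this role, at 7.95, 11.98 and 7.25 CPM against 69.6, 37.4 and 112 CPM in mandible (log2 difference 3.01). Cacna1s was at 0.110, 4.05 and 0.839 CPM against 27.9, 12.01 and 65.7 CPM (log2 difference 4.38), and its call was lost without S18, S19 or S23. In both, S15 was the highest femur library and the groups did not overlap.

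For energy and oxygen supply, 4 of 4 genes were called higher. Ckm, the muscle creatine kinase on chromosome 7 (19404776 to 19422841), was at 0.442, 0.737 and 0 CPM in S13, S15 and S18 and at 211, 87.0 and 271 CPM in S16, S19 and S23, with a log2 difference of 8.91 (SE 0.80). Mb, myoglobin, the oxygen-binding protein of muscle, was at 0, 1.20 and 0 CPM in femur and at 279, 137 and 398 CPM in mandible. Over all libraries the log2 difference was 9.35 (SE 1.04). Without S15, the only femur library with Mb reads, Mb was at least 1820-fold higher in mandible, with femur set at 3 counts per library. Of its exonic length, 31.9% overlaps other genes on the opposite strand. This overlap was 21.9% for Atp2a1, 20.0% for Cacna1s, 15.5% for Ckm and 13.3% for Myh7. Apart from Tnnc2, it was at most 8.11% for the remaining members. Pygm, the muscle glycogen phosphorylase, was at 1.60, 7.93 and 0.618 CPM against 42.2, 29.6 and 71.7 CPM, and its call was lost without S13, S19 or S23. Eno3, the muscle enolase of glycolysis, was at 11.5, 8.06 and 6.72 CPM against 57.8, 21.4 and 89.8 CPM, with the lowest log2 difference of the called members, 2.69.

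The called members mostly shared an order across the mandible libraries, with S23 highest and S19 lowest. Of the 29 called, all were lower in S19 than in S16, at a median of 0.489 of the S16 level (from 0.325 for Myh2 to 0.738 for Myh8). In S23, 26 of the 29 were above S16, at a median of 1.55 times (from 0.275 for Myh4 to 8.30 for Myh8). Between S23 and S19 the median was 3.44 times, from 0.391 for Myh4 to 11.2 for Myh8. Myh4 and Myh8 were thus at opposite ends of the members, and both are neighbours in the chromosome 11 cluster. The SD of the mandible levels was accordingly large, as in Acta1, whose mean was 1100 ± 697 CPM (SD, n = 3) against 0.502 ± 0.363 CPM in femur.

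**Figure D4:**
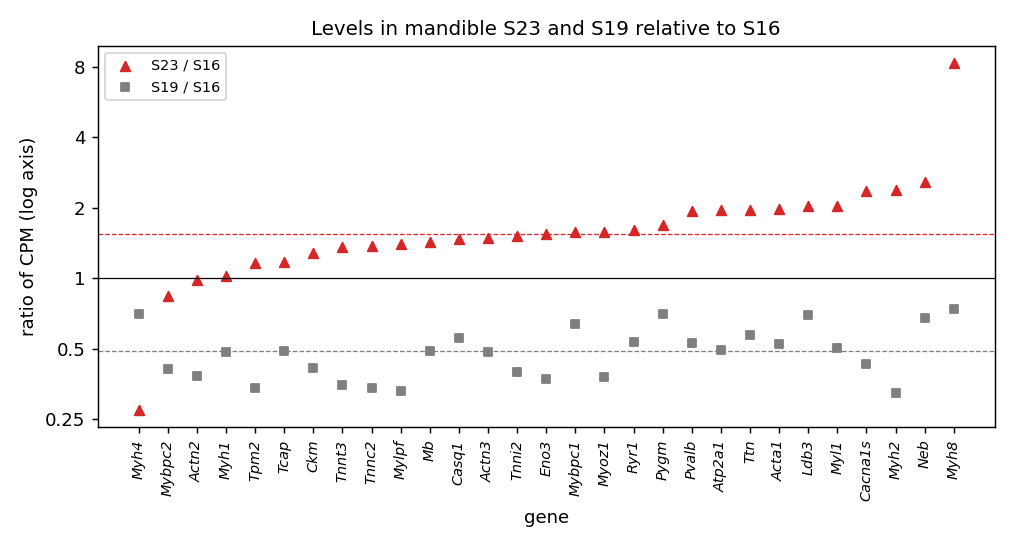
Level of each called member in S19 (grey squares) and in S23 (red triangles) as a ratio of CPM to S16, on a log axis, with dashed lines at the medians. All 29 lie below 1 in S19, 26 lie above 1 in S23, and Myh4 (0.275) and Myh8 (8.30) mark the ends in S23.

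Femur reads of the members had a different make-up in S15. All 41 members had a count there, against 28 in S13 and 24 in S18, and 32 of the 41 were highest in S15 among the femur libraries. There were 10 members with counts in S15 and 0 in S13 and S18: Actc1, Tnni1, Myh7, Myl3, Actn2, Tcap, Ldb3, Pvalb, Casq1 and Mb. The median member had 1.04, 11.8 and 1.38 counts per kilobase in S13, S15 and S18, and 13454 genes counted in S15 alone had a median of 4.45 counts per kilobase. In S15 the log2 counts of the members went with log2 gene length (Pearson's r 0.56, Spearman's rho 0.49, 41 members), and less so in S13 (0.10 and -0.12, 28 members) and S18 (0.20 and 0.08, 24 members). The points of each value share 1 library. Whatever gave S15 these counts was not tested, and the slow and embryonic heavy chains of femur, Myh7 and Myh3, rest mainly on this library.

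**Figure D5:**
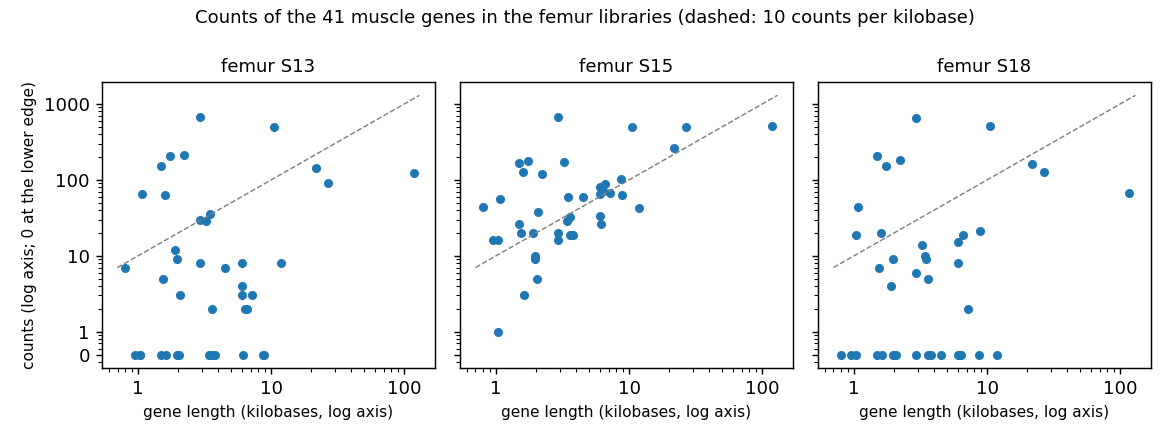
Counts of the members against gene length in kilobases in each femur library, both on log axes, with 1 point per member, 0 at the lower edge and a dashed line at 10 counts per kilobase. In S15 all 41 members have counts, which follow length (r 0.56), while S13 and S18 have 28 and 24 members with a count.

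Many members have a paralog that is used outside skeletal muscle. The cytoplasmic actin Actb, for instance, was at 3616 to 7781 CPM in femur and 3845 to 8125 CPM in mandible (log2 difference 0.10, adjusted p = 0.960 by edgeR). Acta1 came to 0.00693% to 0.0445% of Actb per kilobase in femur and to 22.5%, 10.7% and 84.5% in S16, S19 and S23. Ckm was 0% to 8.83% of the brain-type Ckb in femur and 368%, 139% and 373% of it in mandible. Tpm2 was 8.71% to 15.3% of Tpm3 in femur and 353%, 125% and 732% in mandible, and Atp2a1 was 0.144% to 1.25% of Atp2a3 in femur and 105%, 49.5% and 363% in mandible. Over the 17 listed paralogs, 2 were called higher in mandible and 0 lower, with a median log2 difference of 0.03. Of all genes tested, 3.88% were called higher and 1.30% lower. Myh9 and Actg1, the most abundant after Actb, were not called (log2 differences 0.41 and -0.28, adjusted p = 0.705 and 0.815 by edgeR). The 2 called were Ckb (log2 difference 2.21, adjusted p = 0.00302) and Myh10, a nonmuscle heavy chain (log2 difference 2.17, adjusted p = 0.0434 by edgeR, and 0.0753 without S15), and without S15 the calls were 1 higher and 1 lower.

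Other genes of the same apparatus were listed with earlier results of these data known. The calls in this and the later lists stand beside 3.88% of all genes tested called higher and 1.30% called lower. Without S15 these shares were 5.11% and 3.24%. Of 37 further sarcomere and Z-disc genes, 32 were tested, 16 were called higher and 0 lower, with a median log2 difference of 3.90, 30 of the 32 above 0, and 12 to 24 called with 1 library left out, the most without S15. Among those not called, Myl6b, a light chain of slow muscle and nonmuscle cells, was at 0.939, 0.921 and 1.41 CPM in S13, S15 and S18 and at 0, 0.285 and 0 CPM in S16, S19 and S23. Des, desmin, the intermediate filament around the Z-disc, was at 0.221, 1.66 and 0.309 CPM in S13, S15 and S18 and at 348, 142 and 417 CPM in S16, S19 and S23 (log2 difference 8.66, adjusted p = 9.95e-05 by edgeR). Tpm1, the α-tropomyosin, was higher by 2.61 on the log2 scale (SE 0.39, adjusted p = 0.00271 by edgeR) and already stood at 89.9 to 106 CPM in femur. Myot and Klhl41, of the Z-disc and its assembly, differed by 7.76 (adjusted p = 0.00158) and 7.75 (adjusted p = 0.00171), and the actin-binding Xirp2 by 6.25 (adjusted p = 0.0123).

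Of 31 further excitation and calcium genes, 21 were tested, 7 were called higher and 0 lower, with a median log2 difference of 3.23. Trdn, triadin, a partner of the release channel, was higher by 5.75 (adjusted p = 0.0182 by edgeR), Jph2, which holds the membranes of the triad together, by 5.61 (adjusted p = 0.0340), and the reticulum protein Srl by 2.65 (adjusted p = 0.0173). Cacng1, a subunit of the muscle calcium channel, had 0 reads in femur and 5.95, 1.14 and 21.96 CPM in S16, S19 and S23, at least 66.6-fold higher with femur set at 3 counts per library. Subunits of the acetylcholine receptor of the nerve-muscle junction did not pass the filter on low counts. In S16, S19 and S23, Chrna1 was at 0, 0.0475 and 0 CPM and Chrnb1 at 0, 0.0950 and 0 CPM. Chrne was at 0, 0 and 1.14 CPM there, and Chrnd and Chrng were at 0. In S13, S15 and S18, Chrna1 was at 0.166, 1.70 and 0.0884 CPM and Chrnb1 at 0, 1.24 and 1.59 CPM. Chrnd was at 0, 0.415 and 0.751 CPM, Chrne at 0, 0.829 and 0.353 CPM, and Chrng at 0, 0.184 and 0 CPM. The kinase Mylk3 was not called (log2 difference -0.44, adjusted p = 0.816). The number called in this list was the least firm, at 12 without S15 and at 3, 3, 2 and 1 without S13, S18, S19 and S23.

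Of 16 further genes of muscle energy metabolism, 13 were tested, 7 were called higher and 0 lower, with a median log2 difference of 5.04, and 4 were called without S23. Eef1a2, the elongation factor of muscle and nerve, was higher by 7.37 (adjusted p = 0.00150 by edgeR), Ckmt2, the mitochondrial creatine kinase of muscle, by 7.11 (adjusted p = 0.00293), and Cox6a2, the muscle form of a respiratory chain subunit, by 6.17 (adjusted p = 0.00883). Aldoa, an aldolase used in most tissues, and Gys1, a glycogen synthase, were not called (log2 differences 0.74 and -0.10, adjusted p = 0.249 and 0.940).

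The regulators of myogenesis were near the floor. Of 16 satellite cell and myogenic genes 7 were tested, 2 were called higher and 0 lower (3 higher without S15 or under DESeq2, and 1 without any other library), and their summed level was 1.77 to 12.9 CPM in femur and 23.3 to 54.3 CPM in mandible. Pax7, which marks satellite cells, was at 0 in S16 and S23 and at 0.285 CPM in S19, and 5 of the 16 were at 0 in every mandible library, among them Myog, the regulator of fusing myoblasts. Vgll2, a cofactor of muscle gene transcription, was among those called, with 1 femur read against 7.71, 2.23 and 5.49 CPM in S16, S19 and S23 (adjusted p = 0.00737 by edgeR). Heart genes were low in mandible, with 3 of 9 tested, 0 called by edgeR or DESeq2 (0 with an unadjusted p under 0.05), Myh6 at 0.190 CPM in S19 and 0 in S16 and S23, and sums of 3.67 to 24.0 CPM in femur and 3.60 to 6.18 CPM in mandible.

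Markers of other cells moved with the members as well. All 10 listed mesenchymal and osteoblast genes were called higher (8 to 10 with 1 library left out), with sums of 163 to 199 CPM in femur and 8814, 11501 and 15005 CPM in S16, S19 and S23, of which Col1a1, a collagen of bone, took 4738, 5629 and 7038 CPM. Enamel-forming ameloblast genes had 6 of 6 tested and 5 called higher, with sums of 0.221 to 1.94 CPM in femur and 5696, 7270 and 11217 CPM in S16, S19 and S23. Of these Amelx, the enamel protein amelogenin, was at 3039, 3649 and 6469 CPM. In both lists S16 was the lowest mandible library, whereas S19 was the lowest for 29 of the 30 members above femur. Tendon genes had 5 of 6 tested and 3 called higher (2 or 3 with 1 library left out), with sums of 0.309 to 3.50 CPM against 114 to 126 CPM, and their defining marker Scx was at 0, 0.617 and 1.37 CPM in mandible. Smooth muscle and mural genes had 10 of 12 tested and 4 called higher (2 without S19), with sums of 129 to 188 CPM against 194 to 439 CPM and Myh11 at 13.3, 40.9 and 84.4 CPM in S16, S19 and S23. The part of each of these cell types in the members' levels was not tested.

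Other blood cell markers were also compared. Of 6 megakaryocyte genes 5 were tested and 4 called lower, with sums of 529 to 850 CPM in femur and 72.0 to 104 CPM in mandible, and Pf4, a platelet chemokine, at 92.4 to 289 CPM against 9.35 to 17.04 CPM. Erythroid genes had 2 of 6 called lower, with sums of 180 to 1310 CPM against 84.3 to 162 CPM and the globin gene Hbb-bs at 44.0 to 318 CPM against 16.8 to 31.6 CPM. The erythroid count was 3 without S15, 2 without S18 and 0 without any other library. Neutrophil genes had 1 of 6 called lower, with sums of 2275 to 18253 CPM against 2569 to 7861 CPM and Elane, a granule protease, at 185 to 1140 CPM against 128 to 314 CPM. The neutrophil count was 3 without S15, 2 under DESeq2 and 0 without any other library. B cell genes had 1 of 6 called higher, Ebf1 (log2 difference 1.89, adjusted p = 0.0481 by edgeR), a call that was lost without each library in turn, without scaling factors and without a filter. The B cell sums were 16.4 to 23.6 CPM against 23.7 to 33.3 CPM, and Cd79a, of the B cell receptor, was at 1.47 to 3.67 CPM against 0.172 to 3.42 CPM.

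Schwann and nerve genes (4 of 7 tested, 79.1 to 89.5 CPM against 78.3 to 115 CPM), endothelial genes (5 of 6 tested, 49.1 to 66.6 CPM against 37.7 to 55.6 CPM) and adipocyte genes (1 of 5 tested, 6.59 to 15.2 CPM against 1.20 to 2.52 CPM) had 0 calls by edgeR. By DESeq2, and by edgeR without S15, they had 0, 0 and 1 call, and 0, 0 and 1 gene were at an unadjusted p under 0.05 in edgeR. The endothelial Pecam1 was at 38.3 to 50.1 CPM against 29.2 to 43.5 CPM, and the fat cell hormone Adipoq was at 4.56 to 13.5 CPM against 1.20 to 2.28 CPM.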

How the data were processed

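Bulk RNA of 6 monocyte libraries, 3 from femur and 3 from mandible, was analysed from the raw counts per gene that the authors deposited. Per the paper and the submitters' processing notes, paired reads of 50 bases were trimmed with Trimmomatic, checked with FastQC, mapped with HISAT2 2.1.0 to GRCm38 and counted with featureCounts. Its version, strand and multimapping settings are not given in the sources used here. The table's exon length per gene, also deposited, was used for levels per kilobase.

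Counts were analysed with edgeR 4.0.16 (R 4.3.3), with TMM normalization and the quasi-likelihood test after filterByExpr with a minimum count of 10, over all genes, on all 6 libraries and without covariates. A call needed a Benjamini-Hochberg adjusted p under 0.05 and at least a 2-fold difference. The steps were tested on simulated counts. Depth was 15718782 to 25371474 counts per library, 3 counts correspond to 0.132 to 0.172 CPM, and intervals are exact at 95%. The 41 members and all gene lists were chosen with earlier results of these data known. The genes named were, by rule, all members, the first marker of lists, and from each pathway list the 3 most abundant genes and the 3 with the largest difference among those called. Xist, Lyz2, Myog, Vgll2, Ebf1, Myl6b, Chrna1, Chrnb1, Chrnd, Chrne and Chrng were named after their values were seen. For Aldoa, with 2 rows of the same symbol, the row with more counts was used. Gene positions come from GENCODE M21 by Ensembl identifier, because only 3031 of 52081 shared genes have a table interval inside the M21 gene. Alternatives were DESeq2 1.42.0, other scalings, filters, prior count and call rules, and each library left out. The other assays of the study were not analysed here. Some genes of the lists are not reported here by name.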

Additional observations from a re-analysis of the deposited data

How the results depend on the processing

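The count of 29 members called higher was 27 under DESeq2, 24 to 29 when 1 library was left out, and 29 under each other scaling, filter, prior count and call rule tried. Of the 29, 23 were called in each fit that left out 1 library. The median log2 difference of 5.86 was 5.28 to 7.26 with 1 library left out, the highest without S15, and 6.85 without S15 with members at 0 in femur at their bound, an alternative chosen after seeing the data. The further excitation and calcium genes called higher, 7 in number, were 11 without a filter and 1 to 12 with 1 library left out. The 7 energy genes became 4 to 8 with 1 library left out, and the 2 nonmuscle paralogs became 1 with a mean CPM of at least 1 and 1 to 2 with 1 library left out. The femur mean of the fast share, 65.5%, was 90.9% for heavy chains alone. With 1 library left out, 2 uncalled members turned in sign: Myh3 (-1.38) ranged from -2.73 to 0.35, the last without S15, and Myom1 (0.24) from -0.45, without S23, to 0.46. The cause was not tested. No paired analysis was possible because the labels do not give the animals behind a library. Members with a few femur reads have their difference limited by depth.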
